A study of Mus musculus with 27 samples.

Results

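Normal-looking thyroid of radiation-exposed mice (NT) was compared with thyroid of non-exposed mice (NCT) over all expressed genes. The comparison holds the 18 libraries that carry either label, 9 of NT and 9 of NCT, of 27 in the series. All 18 came from different mice, 6 females and 3 males in each group, so the groups were compared unpaired. NT was cut beside histological changes, and each NT mouse also gave 1 of the remaining 9 libraries, of a proliferative lesion (PL), so exposure, bearing a lesion and lying close to one cannot be told apart. All tissue was laser-captured, which means that small areas of a tissue section are dissected with a laser under the microscope. The sources used here do not give radiation type and dose, strain, age, the time since exposure or how the captured areas were chosen within the gland.

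The thyroid is built of follicles, whose epithelial cells make thyroglobulin (Tg), take up iodide and release thyroid hormone. Those cells sit beside calcitonin-making C cells, vessels, fat and, at the margin, parathyroid tissue and airway. Fatty acid synthesis starts in the cytosol with acetyl-CoA and ends with the palmitate made by Fasn. Acyltransferases such as Agpat2 then build glycerolipids, the material of membranes and of the fat droplets of adipocytes. Runx1 is a DNA-binding factor of the runt family, best known for its role in making blood cells, and it is also active in several epithelia.

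Libraries were made from the 3′ ends of transcripts, so counts measure a gene's RNA at its 3′ end. NT libraries held 5047817 to 14148601 counts (median 7220957), against 2923851 to 10202813 (median 4622595) in NCT libraries; the difference of means gave p = 0.0715 in a two-sided exact permutation test. Genes with at least 1 count numbered 19136 to 20491 in NT and 17180 to 21213 in NCT (exact permutation p = 0.187). Levels are given below as CPM, counts scaled to a common library size. Thyroid identity was checked with Tg, which took 1.38 to 3.89% of counts in NT libraries and 2.01 to 5.76% in NCT libraries. Transcripts of the sex chromosomes fitted the labelled sex in 18 of 18 libraries. Some libraries carried tissue from the gland's surroundings: Pth, the parathyroid hormone gene, or Lipf, a secreted lipase gene, exceeded 2000 CPM in NT replicates 7 and 9 and in NCT replicates 5, 8 and 9, and Ucp1, the brown fat uncoupling protein gene, exceeded 100 CPM in NT replicate 4 and NCT replicates 1, 2, 5, 6 and 9. NCT replicate 9 stood farthest apart, with 9908 CPM of Lipf, 16718 CPM of the lysozyme gene Lyz2, 679 CPM of Ucp1 and the smallest count total. By their first 4 digits the mouse numbers fall into 3 runs, which are spread unevenly: 1, 4 and 4 NT mice against 4, 1 and 4 NCT mice. The labels do not say what a run stands for.

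Normal-looking exposed thyroid had less RNA of Fasn and Agpat2, which make fatty acids and glycerolipids, and more RNA of Runx1 than non-exposed thyroid. Of 14447 genes tested, 4 passed an adjusted p of 0.05 (0.0277%): Fasn, Agpat2 and B330016D10Rik fell in NT (0.0208%) and Runx1 rose (0.00692%). Without adjustment, 1673 genes (11.6%) had p under 0.05, of which 809 (5.6%) were higher in NT and 864 (5.98%) lower. The shares of 5.6% higher and 5.98% lower are the background for the list counts given below at that limit. The median log2 fold change of NT over NCT was 0.01 over all genes, with quartiles of -0.17 and 0.20, and it was above 0 for 52.2% of genes and below 0 for 47.8%. Tests were edgeR's quasi-likelihood F tests with Benjamini-Hochberg adjustment over all 14447 genes, and p-values measure the spread between mice as sampled by 1 library each.

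Before their values, the sequences at the starts of the called protein-coding genes are shown, because Fasn and Agpat2 fell together while Runx1 rose. The windows run from 250 bases before to 50 bases after the start in the RefSeq annotation of GRCm38.p6. Capitals mark CCAAT, the box bound by the NF-Y factors, and TGTGGT, the core bound by Runx factors, on either strand.
Fasn promoter (chr11:120824498-120824797, minus strand): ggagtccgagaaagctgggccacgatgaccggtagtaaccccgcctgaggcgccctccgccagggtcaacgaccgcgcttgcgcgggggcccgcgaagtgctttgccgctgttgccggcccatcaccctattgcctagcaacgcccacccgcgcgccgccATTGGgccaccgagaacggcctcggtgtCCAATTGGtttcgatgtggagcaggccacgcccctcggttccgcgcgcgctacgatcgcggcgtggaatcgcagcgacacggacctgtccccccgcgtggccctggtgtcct
Agpat2 promoter (chr2:26604368-26604667, minus strand): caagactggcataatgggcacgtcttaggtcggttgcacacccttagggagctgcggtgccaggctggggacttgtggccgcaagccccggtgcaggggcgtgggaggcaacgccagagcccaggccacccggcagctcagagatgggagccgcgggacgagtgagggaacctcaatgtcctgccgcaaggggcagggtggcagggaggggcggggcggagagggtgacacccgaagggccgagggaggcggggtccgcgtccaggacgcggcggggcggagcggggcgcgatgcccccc
Runx1 promoter, upstream start (chr16:92826025-92826324, minus strand): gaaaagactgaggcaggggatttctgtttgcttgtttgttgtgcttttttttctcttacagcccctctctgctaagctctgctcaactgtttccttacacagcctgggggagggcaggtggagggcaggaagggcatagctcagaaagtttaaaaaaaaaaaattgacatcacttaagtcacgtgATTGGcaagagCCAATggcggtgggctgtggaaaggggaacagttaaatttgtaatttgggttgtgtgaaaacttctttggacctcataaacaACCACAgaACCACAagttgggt
Runx1 promoter, downstream start (chr16:92697280-92697579, minus strand): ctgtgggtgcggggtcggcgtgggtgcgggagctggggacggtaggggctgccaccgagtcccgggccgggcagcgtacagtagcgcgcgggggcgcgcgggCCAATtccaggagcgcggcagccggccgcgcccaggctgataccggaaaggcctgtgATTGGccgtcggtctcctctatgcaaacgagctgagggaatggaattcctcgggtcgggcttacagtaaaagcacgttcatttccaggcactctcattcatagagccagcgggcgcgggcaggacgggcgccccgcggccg

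The Fasn window holds 3 CCAAT matches on both strands together, of which 2 overlap back to back, and the Agpat2 window holds none. Each Runx1 window holds 2 CCAAT matches, and the upstream one also holds 2 TGTGGT matches in its transcribed end. CCAAT is present in 37.4% of the 32851 windows of this length in the table and TGTGGT in 16.8%. The sterol-element-like motif TCACNCCA, present in 4.36% of windows, matched none of these windows, and the E-box CANNTG, present in 72.3%, matched the Fasn window once and the upstream Runx1 window 3 times. A match says only that these letters are present. Counts of 3′ ends do not tell the starts of Runx1 apart.

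Fasn, the multi-enzyme chain that makes palmitate (chromosome 11, 120805846 to 120824547, minus strand, GRCm38), had 97.4 CPM in the lowest, 129 CPM in the median and 166 CPM in the highest NT library, against 167, 252 and 564 CPM in NCT. No NT library reached the lowest NCT library, though the gap between the groups was narrow. Its mean was 131 ± 26.3 CPM in NT and 311 ± 126 CPM in NCT (SD, n = 9 each), a log2 fold change of -1.25 (SE 0.20, adjusted p = 0.0164). Agpat2, which adds an acyl chain to make phosphatidic acid (chromosome 2, 26593057 to 26604417, minus strand), had 16.3, 19.8 and 39.2 CPM in NT, against 36.7, 49.8 and 140 CPM in NCT. A single NT library, replicate 5, lay inside the NCT range. The mean was 22.7 ± 7.35 CPM in NT and 60.6 ± 31.3 CPM in NCT (SD, n = 9 each; log2 fold change -1.40, SE 0.23, adjusted p = 0.0164).

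Runx1 (chromosome 16, 92601466 to 92826149, minus strand) had 19.7, 34.6 and 46.5 CPM in the lowest, median and highest NT library, against 8.18, 15.5 and 23.6 CPM in NCT. All 9 NT libraries lay above the NCT median, and replicate 1 was the only NT library within the NCT range. Its mean was 34.0 ± 7.36 CPM in NT and 16.9 ± 5.24 CPM in NCT (SD, n = 9 each; log2 fold change 1.02, SE 0.19, adjusted p = 0.0390). B330016D10Rik is annotated as a pseudogene (chromosome 4, 141546189 to 141547892, plus strand), so its reads may be shared with a near-identical copy and its value is uncertain. It had 0.549, 1.19 and 2.51 CPM in NT, against 2.89, 5.95 and 10.9 CPM in NCT (log2 fold change -2.20, SE 0.37, adjusted p = 0.0164), and the groups did not overlap. In the lesions of the same exposed mice the median was 133 CPM for Fasn, 19.0 CPM for Agpat2, 29.1 CPM for Runx1 and 2.18 CPM for B330016D10Rik, given as levels only.

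**Figure D1:**
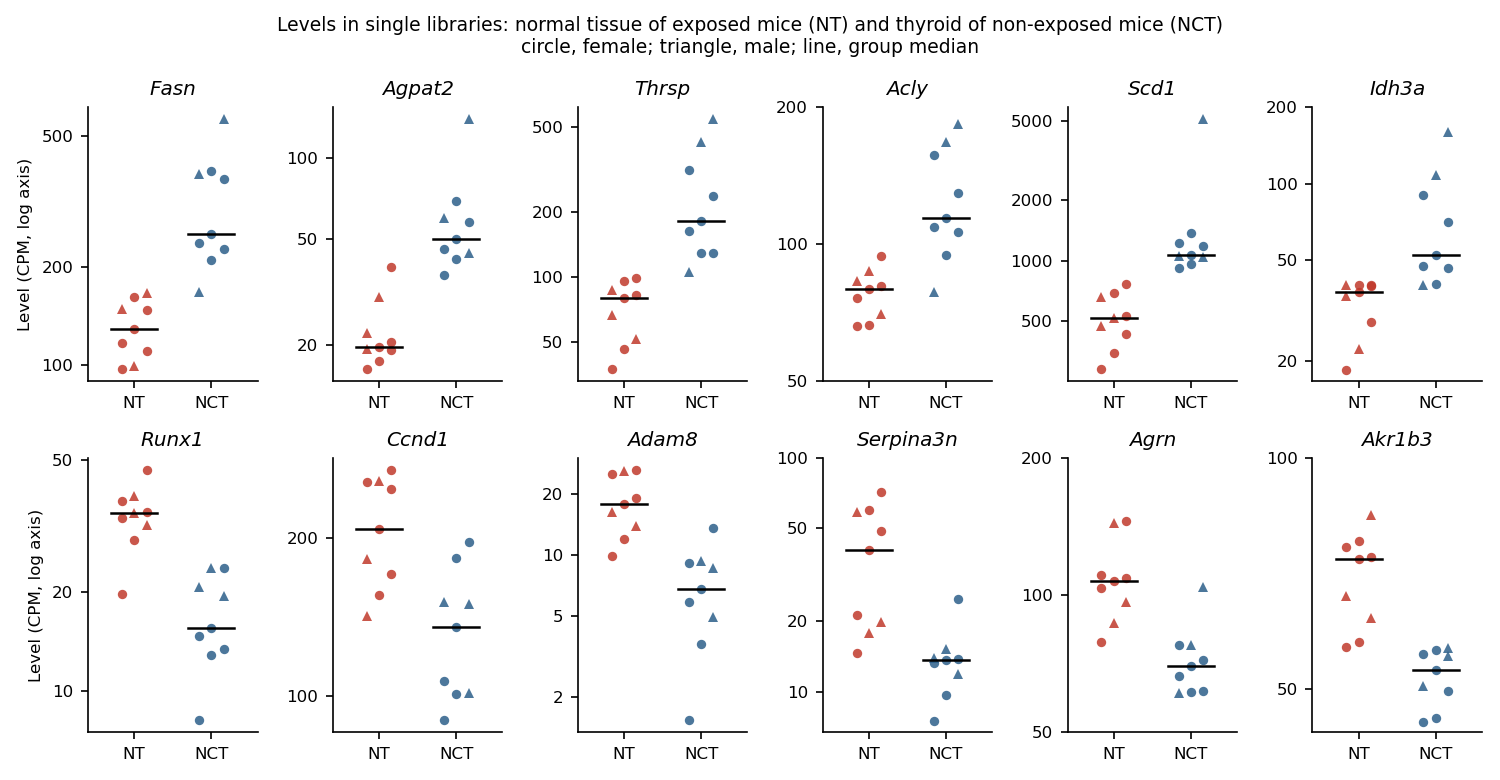
Level of 12 genes in each library, in CPM on a log axis, with NT left of NCT; circles are females, triangles males and lines group medians. Fasn, Thrsp, Scd1 and Idh3a are lower in every NT library than in any NCT library, Akr1b3 is higher in every NT library, and the other genes overlap.

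Read against that background, few genes separated the groups completely: 9 of 14447 (0.0623%) had no overlap in CPM, 3 with all NT libraries higher (0.0208%) and 6 with all NT libraries lower (0.0415%). Besides Fasn and B330016D10Rik the lower ones were Thrsp, Scd1, Idh3a and Gm49602, and the higher ones included Akr1b3 and Gm6863. Thrsp, a lipid-synthesis protein that responds to thyroid hormone, had 37.3, 79.9 and 98.8 CPM in NT, against 106, 182 and 543 CPM in NCT (log2 fold change -1.79, SE 0.32, adjusted p = 0.0778). Scd1, which puts a double bond into fatty acids, had 289, 516 and 764 CPM in NT and 918, 1068 and 5071 CPM in NCT (adjusted p = 0.113), the highest NCT value being that of replicate 9. Idh3a, a subunit of a citric acid cycle dehydrogenase, had 18.6, 37.3 and 39.9 CPM in NT and 40.0, 52.6 and 159 CPM in NCT, so the edges of the groups nearly met. Akr1b3, an aldose reductase, had 56.7, 73.8 and 84.4 CPM in NT and 45.3, 53 and 56.6 CPM in NCT (log2 fold change 0.43, SE 0.10). Of the 9, Fasn and B330016D10Rik passed the adjusted threshold.

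At an adjusted p of 0.10 the count was 20 genes, 7 higher and 13 lower in NT. Among the higher ones with the next smallest p-values, Adam8, a membrane metalloprotease, had 9.86, 17.8 and 26.1 CPM in NT, against 1.53, 6.76 and 13.6 CPM in NCT (log2 fold change 1.37, SE 0.29, adjusted p = 0.0850). Serpina3n, a secreted protease inhibitor, had 14.6, 40.6 and 71.7 CPM in NT, against 7.5, 13.6 and 25.1 CPM in NCT (log2 fold change 1.52, SE 0.31, adjusted p = 0.0893). All 9 NT libraries were above the NCT median for both genes, while 2 of them for Adam8 and 4 for Serpina3n lay within the NCT range. Agrn, a basement membrane proteoglycan, had a median of 107 CPM in NT and 69.9 CPM in NCT (log2 fold change 0.59, SE 0.13, adjusted p = 0.0905). Traf7, a signalling ubiquitin ligase, had 36.6 CPM in NT and 24.6 CPM in NCT at the median (adjusted p = 0.0905). Past that limit came Zyx, a focal adhesion protein (log2 fold change 0.74), Atp11a, a lipid flippase (0.70), and Tgm2, a transglutaminase that crosslinks proteins (0.58), with adjusted p of 0.104, 0.114 and 0.114.

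Among the lower genes with small p-values, Acly, which makes the acetyl-CoA used for fatty acid synthesis, had 66.2, 79.7 and 94.1 CPM in NT, against 78.7, 114 and 184 CPM in NCT (log2 fold change -0.69, SE 0.14, adjusted p = 0.0778). All 9 NT libraries were below the NCT median, though 5 lay within the NCT range. Clybl, a mitochondrial lyase, had a median of 29.3 CPM in NT and 49.9 CPM in NCT (log2 fold change -0.81, adjusted p = 0.0905), with every NT library inside the NCT range. Itih5, a secreted matrix protein, and Lrrc17, a secreted leucine-rich repeat protein, had log2 fold changes of -0.54 and -1.35 (adjusted p = 0.104 each). Aifm1, a mitochondrial flavoprotein, was at -0.58, Suclg1, a citric acid cycle enzyme subunit, at -0.63, and Ppp1r3b, a glycogen-targeting phosphatase subunit, at -1.17 on the log2 scale (adjusted p = 0.114 each). Bc1, a brain-type noncoding RNA, had 113 CPM in NT and 253 CPM in NCT at the median (log2 fold change -1.54, adjusted p = 0.114).

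**Figure D2:**
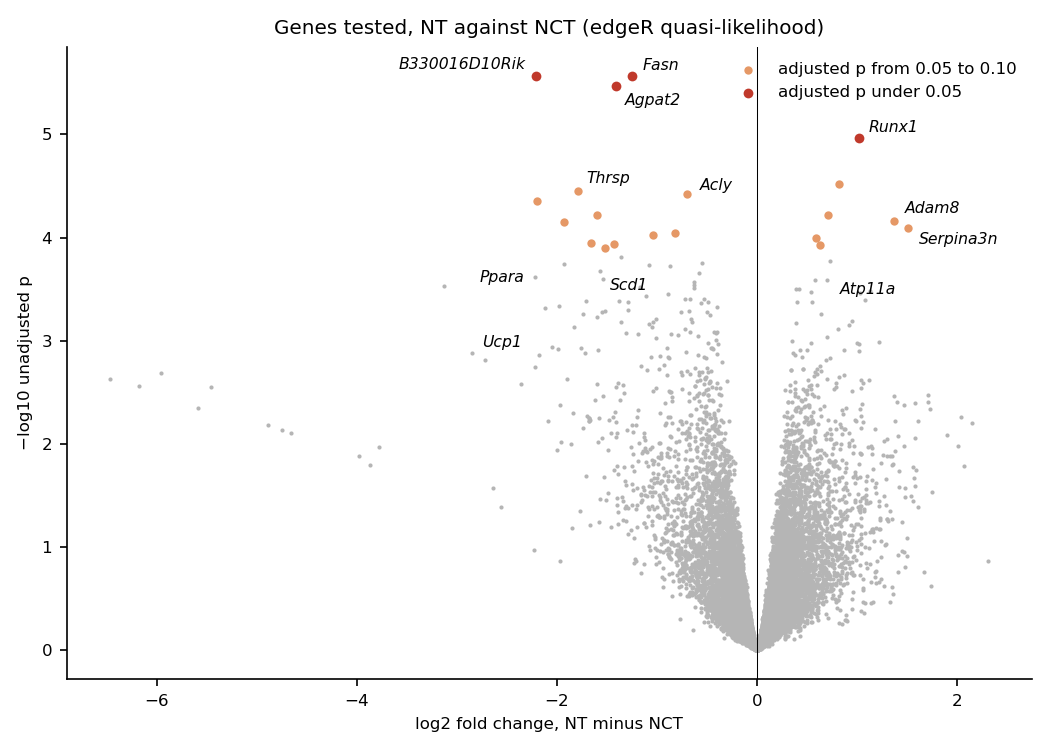
Each point is 1 of 14447 genes: the log2 fold change of NT over NCT on the x axis against minus log10 of the unadjusted p on the y axis. The 4 genes past an adjusted p of 0.05 are dark red and the further 16 under 0.10 are orange; the far left points include genes high in NCT replicate 9 alone.

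Around the called lipid genes, most measured members of the same pathway had negative log2 fold changes without passing the test singly. In the list of fatty acid and glycerolipid synthesis, 25 of 28 genes were tested and 22 were below 0. Fasn and Agpat2 passed the adjusted threshold, 13 genes were lower and 1 higher at an unadjusted p under 0.05, and the median was -0.39. Acacb and Acaca, the carboxylases that make malonyl-CoA, were at -1.66 (SE 0.36, adjusted p = 0.0905) and -0.62 (SE 0.19, adjusted p = 0.207). Lpin1 and Dgat2, which carry glycerolipids towards triglyceride, were at -1.28 and -1.41, and Acss2, a cytosolic acetyl-CoA maker, was at -1.28. Mlxipl, the carbohydrate-responsive transcription factor of lipid synthesis, was at -1.76 (SE 0.47, adjusted p = 0.161). Srebf1, the sterol-element factor that drives the same genes, had 24 CPM in NT and 26.6 CPM in NCT at the median (log2 fold change -0.19, SE 0.28, adjusted p = 0.833), with 7 NT libraries inside the NCT range. Elovl1, an elongase of very long chains, was at 0.55 (SE 0.14, adjusted p = 0.114). Elovl6, the elongase that acts on palmitate, was at 0.00 (SE 0.28).

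Sterol genes were divided. Of 22 tested genes of cholesterol synthesis and uptake, 2 were higher and 4 lower in NT at an unadjusted p under 0.05, with a median log2 fold change of 0.00. Sc5d, a late sterol desaturase, had 23.7, 28.0 and 37.6 CPM in NT and 31.9, 38.4 and 48.0 CPM in NCT (log2 fold change -0.47, adjusted p = 0.122). Insig1, which retains the sterol sensor in the endoplasmic reticulum, was at -0.75 (adjusted p = 0.207).

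Fat-cell transcripts were lower in NT beside the lipid genes. The adipocyte and brown fat marker lists were summed without Dio2, which is also on the thyroid differentiation list. NT libraries held 636, 1167 and 2219 CPM at the lowest, median and highest, against 1393, 2486 and 10489 CPM in NCT. Of the adipocyte markers, 12 of 13 tested were lower in NT at an unadjusted p under 0.05 and none was higher (median log2 fold change -1.24). Of the brown fat markers, 6 of 8 were lower and none higher (median -1.95). No marker on either list was at 0 in all NT libraries. Adipoq, the adipocyte hormone adiponectin, had 12.7, 31.5 and 65.9 CPM in NT and 35.6, 58.8 and 269 CPM in NCT (adjusted p = 0.256). Fabp4, a fatty acid carrier of fat cells and macrophages, had 66.8, 168 and 528 CPM in NT and 170, 609 and 2825 CPM in NCT (log2 fold change -2.04, adjusted p = 0.161). Ucp1, the heat-producing uncoupler, had 2.59, 12.7 and 104 CPM in NT and 69.7, 102 and 679 CPM in NCT (log2 fold change -2.85, SE 0.74, adjusted p = 0.165). A single NT library, replicate 4, reached the NCT range for Ucp1. In such bulk tissue fewer cells of a type and less RNA per cell cannot be told apart.

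Values of the lipid genes were recomputed in fits that take account of fat transcripts. The covariate was the mean log2 level of the tested fat markers, here with Dio2 included. With it, Fasn was at -0.51 (SE 0.18, adjusted p = 0.581) and Agpat2 at -0.59 (SE 0.21, adjusted p = 0.584), and no gene passed the adjusted threshold in edgeR (1001 had an unadjusted p under 0.05). Leaving out the 6 libraries over 100 CPM of Ucp1 kept 8 NT libraries, with fat-marker sums of 636 to 2219 CPM, and 4 NCT libraries, with 1393 to 2685 CPM, so the sums still differed. This set gave -0.70 for Fasn and -0.86 for Agpat2 (adjusted p = 0.982 each) and again no call, with 669 genes at an unadjusted p under 0.05. Runx1 was at 1.03 with the covariate (adjusted p = 0.554) and at 0.89 without those libraries (adjusted p = 0.982). The list of fatty acid and glycerolipid synthesis had medians of -0.18 with the covariate and -0.29 without those libraries, with 8 of 25 genes lower in the smaller set at an unadjusted p under 0.05. The fat-marker sums of the groups overlapped in NT replicates 4, 5 and 9 and NCT replicates 1, 4, 7 and 8. In these libraries Fasn had 148, 162 and 99.4 CPM in NT, against 252, 236, 226 and 167 CPM in NCT. Agpat2 had 19.3, 39.2 and 22.3 CPM in NT, against 49.8, 46.0, 36.7 and 44.2 CPM in NCT. Fasn did not overlap between the groups in the full set, so any choice of libraries gives lower NT values and this one adds nothing. For Agpat2, NT replicate 5 lay within the range of these NCT libraries. The part of fat tissue in the lipid gene differences was not tested.

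**Figure D3:**
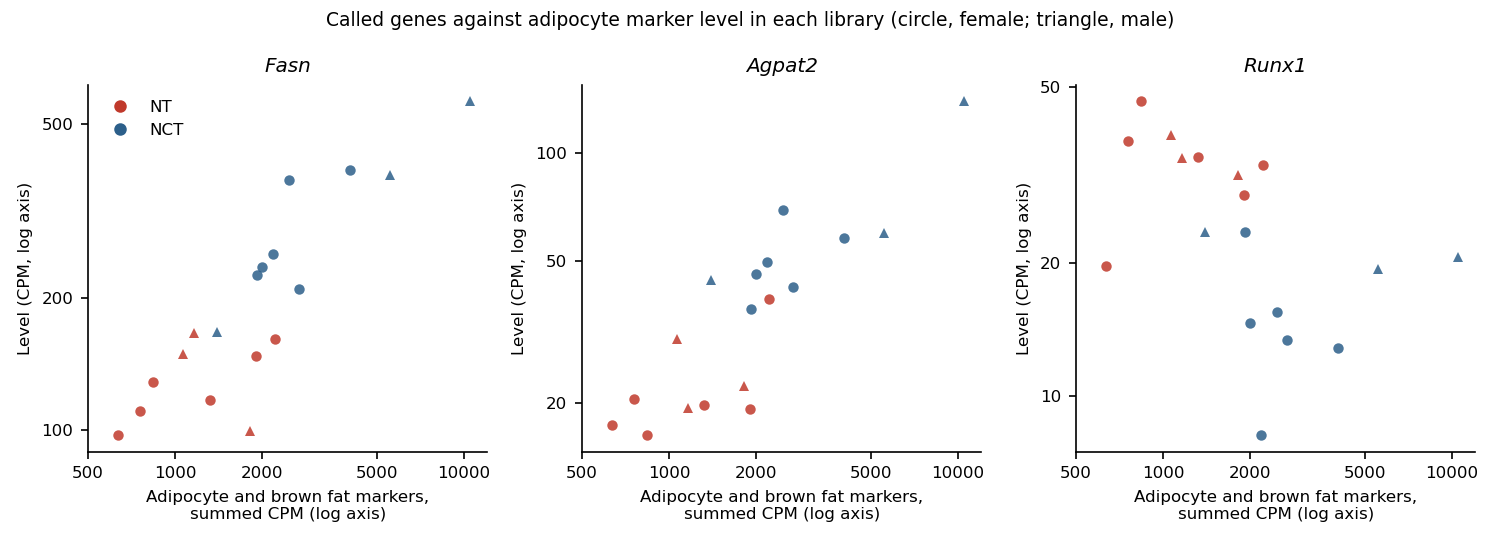
Level of Fasn, Agpat2 and Runx1 (y axis, CPM, log scale) against the summed level of adipocyte and brown fat markers without Dio2 (x axis, CPM, log scale) in each of the 9 NT (red) and 9 NCT (blue) libraries. Circles are females and triangles males. The marker sums overlap between 1393 and 2219 CPM, and Fasn and Agpat2 are highest in NCT replicate 9, which has the highest sum.

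Mitochondrial gene lists also had negative medians. The 13 protein-coding genes of the mitochondrial genome, which encode respiratory chain subunits, all had negative log2 fold changes (median -0.53). Of these, 11 had an unadjusted p under 0.05. Their sum was 47675, 66395 and 93347 CPM in NT, against 58284, 89648 and 154540 CPM in NCT. All mitochondrially encoded genes together, a larger set, took 8.35, 10.5 and 14% of counts in NT, against 10.3, 12.8 and 20.3% in NCT. mt-Nd6, the one encoded on the light strand, had 1.05, 2.72 and 3.78 CPM in NT and 2.63, 6.65 and 14.4 CPM in NCT (log2 fold change -1.52, SE 0.34, adjusted p = 0.0905). mt-Nd4l, another complex I subunit, had 75.3, 108 and 152 CPM in NT and 115, 186 and 251 CPM in NCT (log2 fold change -0.63, adjusted p = 0.114). Reads of mitochondrial genes can be shared with nuclear copies, so these values are uncertain. Of 35 tested nuclear genes of oxidative phosphorylation, 14 were lower and none higher at an unadjusted p under 0.05, with a median of -0.34. Ndufa2, a complex I subunit, had 170, 196 and 259 CPM in NT and 206, 268 and 329 CPM in NCT (log2 fold change -0.41, adjusted p = 0.141), and Atp5a1, the alpha subunit of ATP synthase, was at -0.41 (adjusted p = 0.207).

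Of 20 tested genes of fatty acid oxidation, 14 were lower and none higher at an unadjusted p under 0.05, with a median of -0.50. By sign alone, 18 were below 0 and 2 above. Ppara, the nuclear receptor that drives this pathway, had 0.871, 3.29 and 9.01 CPM in NT and 4.08, 12 and 46.8 CPM in NCT (log2 fold change -2.22, SE 0.50, adjusted p = 0.114). Acadm, the medium-chain dehydrogenase, had 40.9, 60.1 and 65.3 CPM in NT and 59.1, 86.3 and 254 CPM in NCT (log2 fold change -1.03, adjusted p = 0.129). Hadhb, of the trifunctional protein, was at -1.05 (adjusted p = 0.166), and Cpt1a, the gatekeeper of mitochondrial import, at 0.16 (adjusted p = 0.638). With the fat-marker covariate, which joins white and brown fat markers, the medians were 0.06 for fatty acid oxidation, -0.06 for nuclear oxidative phosphorylation and -0.15 for mitochondrial genes. Without the libraries over 100 CPM of Ucp1 they were -0.15, -0.07 and -0.34 in the same order. The part of fat tissue in these lists was not tested.

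**Figure D4:**
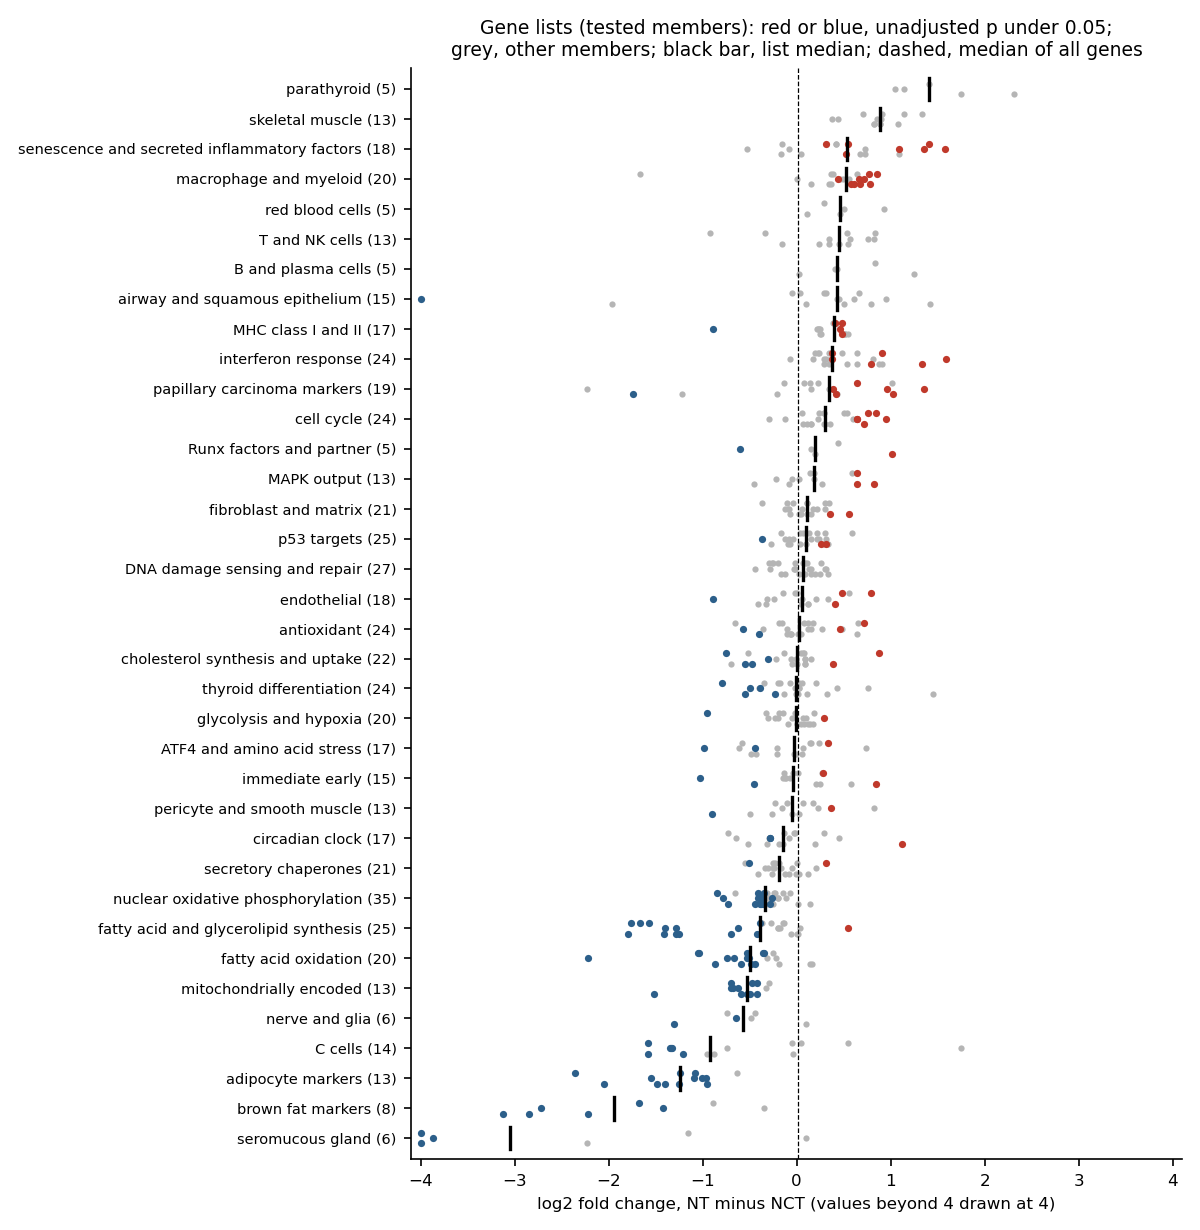
Log2 fold change of NT over NCT (x axis) for the tested members of each gene list with at least 5 of them, lists ordered by their median (black bar) with the number tested in brackets. Members at an unadjusted p under 0.05 are red where NT is higher and blue where NT is lower; fat, mitochondrial, C cell and lipid synthesis lists lie to the left of the all-gene median (dashed), and immune and secreted-factor lists to the right.

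Thyroid follicle genes had a median near that of all genes. Of 24 tested differentiation genes, 5 were lower in NT (20.8%, against 5.98% of all genes) and none higher at an unadjusted p under 0.05. The median log2 fold change was -0.01. Pax8, a paired-box factor of the follicle cell, had 91.6, 103 and 121 CPM in NT, against 114, 130 and 180 CPM in NCT (log2 fold change -0.39, SE 0.10, adjusted p = 0.141). All 9 NT libraries lay below the NCT median, and 2 lay inside the NCT range. The level of Tg, the hormone precursor, was 12574, 27811 and 39020 CPM in NT and 26330, 38411 and 60435 CPM in NCT (log2 fold change -0.55, SE 0.18, adjusted p = 0.254). Its lowest NT library was replicate 9, which held 25793 CPM of Pth. Slc5a8, an anion transporter of the apical membrane, had 11.7, 46.2 and 59.1 CPM in NT and 43.7, 68.2 and 116 CPM in NCT (adjusted p = 0.264). The other lineage factors were near 0, with Nkx2-1 at -0.17 (SE 0.20) and Foxe1 at 0.01 (SE 0.13).

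The iodide transporter and the thyrotropin receptor spread widely among exposed mice. Slc5a5, the sodium-iodide symporter, had 3.19, 96.0 and 178 CPM in NT and 58.6, 102 and 167 CPM in NCT (log2 fold change -0.07, SE 0.45). Tshr, the thyrotropin receptor, was at 0.32 (SE 0.33, adjusted p = 0.747). The NT range enclosed the NCT range for Slc5a5 and for Tshr, the lowest NT value of both being that of replicate 9.

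Genes usually followed after irradiation had medians near that of all genes. Of 25 tested p53 targets, 2 were higher and 1 lower in NT at an unadjusted p under 0.05, with a median of 0.10. Cdkn1a, the p21 brake on the cell cycle, had 150, 181 and 238 CPM in NT, against 106, 151 and 197 CPM in NCT (log2 fold change 0.32, SE 0.13, adjusted p = 0.350). Zmat3, a zinc-finger p53 target, was at 0.26 (SE 0.13, adjusted p = 0.431), and Mdm2, the ligase that degrades p53, at 0.22 (SE 0.12, adjusted p = 0.518). Of 27 tested genes of DNA damage sensing and repair, none had an unadjusted p under 0.05 (median 0.06), the range being -0.44 to 0.34.

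The list of senescence and secreted inflammatory factors had 7 of 18 tested genes higher (38.9%, against 5.6% of all genes) and none lower at an unadjusted p under 0.05. The median was 0.53, and the 7 included the lamin gene Lmnb1 at 0.52. Below 0, none of them at that limit, were Igfbp3 (-0.53), Cdkn2a (-0.17), Igfbp5 (-0.15) and Cdkn2b (-0.08). Ccl2, a chemokine that draws monocytes, had 2.78, 6.68 and 16.7 CPM in NT, against 0.341, 2.39 and 8.93 CPM in NCT (log2 fold change 1.41, SE 0.44, adjusted p = 0.223). Ccl8, a related chemokine, was at 1.58 (SE 0.53, adjusted p = 0.279). Its highest NT values were 382 CPM in replicate 6 and 289 CPM in replicate 3, and the next was 89.4 CPM. Timp1, a metalloprotease inhibitor, was at 1.35 (SE 0.49, adjusted p = 0.301), and Glb1, the lysosomal beta-galactosidase, at 0.54 (SE 0.16, adjusted p = 0.207). Ccl2 was above the NCT median in all 9 NT libraries, of which 6 lay in the NCT range.

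Macrophage, interferon and antigen presentation lists had positive medians, unevenly between mice. Of 20 macrophage and myeloid genes, 9 were higher (45%, against 5.6% of all genes) and none lower at an unadjusted p under 0.05 (median 0.52). Fcer1g, an antibody-receptor adaptor, had 26.8, 58.9 and 147 CPM in NT and 19.7, 37.3 and 50.6 CPM in NCT (log2 fold change 0.78, adjusted p = 0.254). C1qa, a complement subunit, was at 0.77 (SE 0.29, adjusted p = 0.321). Of 24 interferon-response genes, 6 were higher (25%) and none lower (median 0.38), with Irf7, an interferon regulatory factor, at 1.34 (SE 0.49, adjusted p = 0.301). The antigen presentation list had 4 of 17 genes higher (23.5%) and 1 lower (median 0.40), Tapbp, a peptide-loading chaperone, being at 0.48 (SE 0.15, adjusted p = 0.208). No T and NK cell gene of 13 and no B and plasma cell gene of 5 had an unadjusted p under 0.05.

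NT replicate 6 held the highest sums of these lists among NT: 4203 CPM of macrophage and myeloid genes against a group median of 2355 CPM, 1829 against 694 CPM of interferon genes and 7019 against 374 CPM of B and plasma cell genes. Without it the macrophage median was 0.33 with 4 genes higher, the interferon median 0.23 with 1 higher and the antigen presentation median 0.19 with 2 higher. With the fat-marker covariate these 3 medians were 0.15, 0.09 and 0.01. The part of cell composition in these values was not tested.

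Cell cycle genes also had a positive median. Of 24 tested, 6 were higher in NT (25%, against 5.6% of all genes) and none lower at an unadjusted p under 0.05, with a median of 0.30. Without NT replicate 6 the count was 1 and the median 0.22. Ccnd1, the cyclin of G1 entry, had 142, 208 and 269 CPM in NT, against 89.9, 135 and 197 CPM in NCT (log2 fold change 0.64, SE 0.16, adjusted p = 0.121), all 9 NT libraries being above the NCT median. Mki67, a marker of dividing cells, had 7.88, 14.5 and 50.3 CPM in NT and 2.73, 11.1 and 18.4 CPM in NCT (log2 fold change 0.72, SE 0.33, adjusted p = 0.410). Of 19 tested markers known from human papillary thyroid carcinoma, 6 were higher (31.6%) and 1 lower (median 0.34). Lgals3, the galectin used in thyroid pathology, had 110, 227 and 561 CPM in NT, against 85.6, 114 and 181 CPM in NCT (log2 fold change 1.02, SE 0.27, adjusted p = 0.161). Cited1, a transcriptional co-activator on the same list, had 0.286, 1.98 and 4.99 CPM in NT and 1.49, 7.77 and 11 CPM in NCT (log2 fold change -1.74, adjusted p = 0.121). Of the 13 MAPK output genes tested, 3 were higher (23.1%) and none lower (median 0.18). The lists share members, so their counts are not separate results. Ccnd1 is counted as higher in the cell cycle, papillary carcinoma and MAPK lists. Timp1 is counted in the papillary carcinoma and senescence lists, and Cdkn1a in the p53 and senescence lists.

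Around the called Runx1, none of its relatives passed the adjusted threshold. Runx2 and Runx3, the other runt factors, were at 0.16 (SE 0.38) and 0.44 (SE 0.23), and Cbfb, the shared binding partner, at 0.20 (SE 0.16). Runx1t1, a transcriptional co-repressor and in human leukaemia a fusion partner of RUNX1, had 7.77, 14.7 and 18.6 CPM in NT, against 14.9, 17.7 and 29.2 CPM in NCT (log2 fold change -0.60, SE 0.19, adjusted p = 0.212). Of the 5 genes on that list, 1 was higher and 1 lower in NT at an unadjusted p under 0.05, and Runx1 alone passed the adjusted threshold.

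Transcripts of other tissues in the captured areas varied widely between libraries. C cell genes had 6 of 14 lower (42.9%, against 5.98% of all genes) and none higher in NT at an unadjusted p under 0.05 (median -0.92). Scg3 and Chgb, granule proteins, were at -1.33 (SE 0.38) and -1.58 (SE 0.50). Calca, the calcitonin gene, had 305, 1232 and 5235 CPM in NT and 658, 2920 and 6391 CPM in NCT. The seromucous gland list had a median of -3.05 over 6 genes, and 0.73 without NCT replicate 9, which held 43003 CPM of its genes against a group median of 260 CPM. Parathyroid genes had no member of 5 at an unadjusted p under 0.05, and their sums ran between 128 and 36097 CPM in NT and between 147 and 8792 CPM in NCT. Fibroblast genes had a median of 0.11, endothelial genes 0.05 and smooth muscle genes -0.05. Lists of glycolysis, antioxidant defence, the circadian clock, immediate early genes, amino acid stress and secretory chaperones had medians between -0.18 and 0.03, each with at most 2 genes in either direction.

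The called genes had the same sign in females and in males, which are smaller sets. Fasn and B330016D10Rik did not overlap between the groups, so any choice of libraries, by sex or by run, gives their sign and adds nothing. Agpat2 and Runx1 each had a single NT library within the NCT range, so their signs were close to fixed as well. Fasn was at -1.14 in females (SE 0.17, adjusted p = 0.0334) and -1.42 in males (SE 0.42, adjusted p = 0.906), Agpat2 at -1.19 in females (SE 0.22) and -1.74 in males (SE 0.41), and Runx1 at 1.19 in females (SE 0.24) and 0.73 in males (SE 0.26). The difference between sexes was tested as an interaction, and no gene of 14447 passed the adjusted threshold by edgeR (412 at an unadjusted p under 0.05) or by limma-voom (555). Within the run of mouse numbers with 4 mice in each group, Fasn was at -1.46 (SE 0.35), Agpat2 at -1.64 (SE 0.41) and Runx1 at 0.83 (SE 0.20), with no gene past the adjusted threshold (adjusted p = 0.986 for all 3; 618 genes at an unadjusted p under 0.05). The other runs held 1 mouse in one of the groups and give no value of their own. With the run as a covariate, 7 genes passed, Fasn, Agpat2 and Runx1 among them.

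The number of calls depended on the method and on single libraries. DESeq2's Wald test called 134 genes, 34 higher and 100 lower in NT, all 4 called genes included, whereas limma-voom called none (1583 at an unadjusted p under 0.05), with adjusted p of 0.0714 for Fasn and Runx1 and 0.0908 for Agpat2. Leaving out NT replicate 4 or NT replicate 6 ended all calls, and leaving out NCT replicate 7 gave 12. Fasn was called in 16 of 18 such fits, Agpat2 in 15 and Runx1 in 6, with log2 fold changes of -1.33 to -1.09, -1.54 to -1.16 and 0.93 to 1.10.

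**Figure D5:**
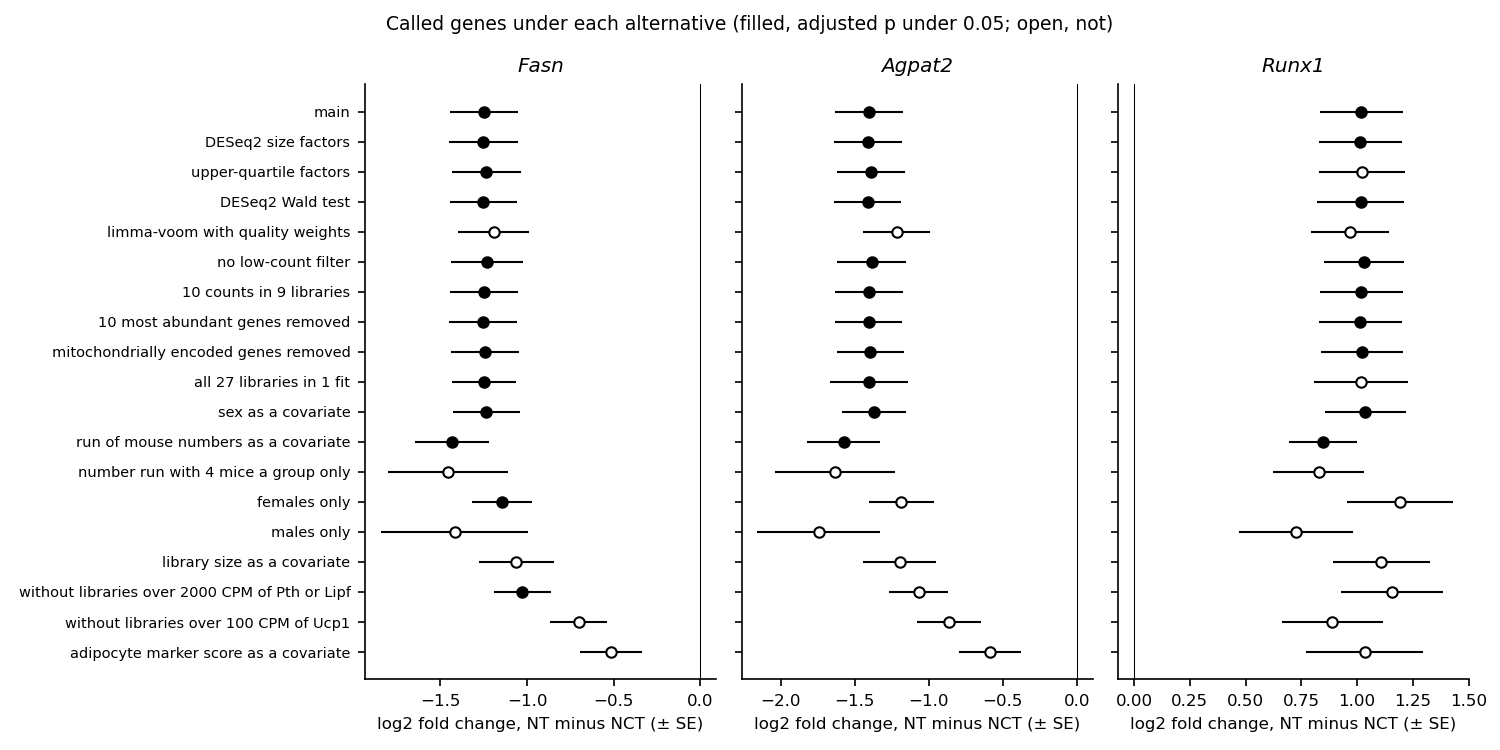
Log2 fold change of NT over NCT (points, ± SE) for Fasn, Agpat2 and Runx1 under the main test and 18 alternatives, filled where the adjusted p was under 0.05. Fasn and Agpat2 move nearest to 0 with the fat-marker covariate, at -0.51 and -0.59, whereas Runx1 lies between 0.73 and 1.19 throughout.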

How the data were processed

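RNA was measured in laser-captured mouse thyroid with a kit for small RNA amounts and a QuantSeq 3′ library kit, per the labels' protocols. The authors deposited raw read counts per gene for all 27 libraries, with no normalization. Per the submitters' processing notes, STAR, featureCounts, DESeq2 and GRCm38 were used, with no version or role given. The sources used here do not give strand setting, molecular identifiers or annotation release, so overlapping and antisense genes may share reads. Of 54532 gene rows, 54495 were named by identifier in GENCODE M21 (GRCm38, coordinates from 1). The other 37 held 0.0043% of counts.

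Levels (CPM) are counts scaled with TMM factors over all libraries. The test was edgeR 4.0.16 (R 4.3.3), quasi-likelihood with robust dispersions, on 9 NT and 9 NCT libraries, with TMM and the default filter at 10 counts, which left 14447 genes, and Benjamini-Hochberg at 0.05. SE is the log2 fold change over the root of F. Scripts were tested on simulated data. limma 3.58.1 and DESeq2 1.42.0 served as alternatives. No 2 libraries of a group matched within sampling noise (lowest chi-square per degree of freedom 13.2).

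Named genes were those past the threshold, the next by p with at least 10 CPM up to 24 in all, the first 3 of each list, and a fixed set of known genes; Gm6863, Gm49602, Idh3a, Akr1b3 and further list members were chosen after their values were seen. Some genes that this rule names are not reported here. Members and lists were chosen with earlier results of these data known. The list values without NT replicate 6 and without NCT replicate 9 were added after seeing the data.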

Additional observations from a re-analysis of the deposited data

Results flagged for a closer look

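In 68 named genes, each group of 9 was screened for a library whose gap to its neighbour is large against the group's range. Of 136 groups, 19 held such a library, and 8 of the 19 were NCT replicate 9. The cutoff flags about 1 in 20 only for independent, normally distributed values. Untransformed CPM of genes that vary together need not be such values, so the count was not set against chance. In that library Agpat2 was at 140 CPM against 69.5 CPM in the next NCT library, Scd1 at 5071 CPM, Hadhb at 249 CPM, Fabp4 at 2825 CPM, Adipoq at 269 CPM, Ucp1 at 679 CPM, Otop1, a brown fat proton channel, at 30.5 CPM and Insig1 at 72.7 CPM. Without it Fasn, Agpat2, Runx1 and B330016D10Rik were all called, with Agpat2 at -1.16.

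NT replicate 6 was the highest NT library for Mki67 (50.3 CPM), Tpx2, a spindle assembly factor (23.9 CPM), Fcer1g (147 CPM) and Irf7 (88.8 CPM). NT replicate 8 was the lowest for mt-Nd6 (1.05 CPM) and Mdm2 (55.6 CPM) and the highest for Chgb (26.6 CPM). Single libraries were also highest for Ppp1r3b (NT replicate 7, 24.4 CPM), Sc5d (NT replicate 1, 37.6 CPM), Serpina3n (NCT replicate 7, 25.1 CPM) and Agrn (NCT replicate 6, 104 CPM).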

How the results depend on the processing

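No paired analysis was possible because NT and NCT came from different mice with no shared number. Against 4 genes past the threshold, 20 passed at an adjusted p of 0.10, 134 by DESeq2's Wald test, 15 with no low-count filter and 7 with the run of mouse numbers as a covariate. The count was 1 in females and 1 without the libraries over 2000 CPM of Pth or Lipf (Fasn both times). It was 0 by limma-voom, in males, in the number run with 4 mice a group, with library size as a covariate, without the libraries over 100 CPM of Ucp1 and with the fat-marker covariate. Leaving out 1 library gave 0 to 12 calls. The cause of these changes was not tested; the subsets hold fewer libraries.

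Of 2443 values of the 68 genes, 2304 kept their direction and side of the threshold and 26, in 7 genes, changed sign. Only 4 of the 68 were called in the main test, so for most genes keeping the side means staying uncalled. Under the 18 alternatives other than leaving out 1 library, Fasn was called in 12, Agpat2 in 10, B330016D10Rik in 9 and Runx1 in 8. With the fat-marker covariate the sign changed for Srebf1 (0.27), Lpl (0.028), Adipoq (0.23), Cidea (0.012), Tshr (-0.077) and Foxe1 (-0.012). Lpl, Adipoq and Cidea are themselves part of that covariate, so their values were adjusted for a score that holds them, and their change of sign says nothing further. Without the libraries over 100 CPM of Ucp1 the sign changed for Srebf1 (0.067) and Slc5a5 (0.0080). Slc5a5 was also at 0.049 with the run, 0.13 in males and 0.11 without the Pth or Lipf libraries, and Foxe1 at -0.056 with the run, -0.17 in the run with 4 mice a group, -0.030 in females and -0.072 with library size. Leaving out 1 library gave -0.22 to 0.10 for Slc5a5 and -0.078 to 0.081 for Foxe1. Other scalings moved the all-gene median by at most 0.01. Depth limits genes of a few CPM, such as B330016D10Rik.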

Other observations

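Single genes of lists not described above had values of note, chosen after their values were seen. Cry1, a clock repressor, had 4.36, 7.29 and 11.4 CPM in NT and 0.341, 3.72 and 5.46 CPM in NCT (log2 fold change 1.12, SE 0.33, adjusted p = 0.204), with all 9 NT libraries above the NCT median. Hsd17b7, a sterol and steroid reductase, had 8.13, 14.6 and 19.1 CPM in NT and 3.86, 6.28 and 14.9 CPM in NCT (log2 fold change 0.87, SE 0.26, adjusted p = 0.196). Gpx3, a secreted glutathione peroxidase, had 51.5, 89.2 and 117 CPM in NT and 91.7, 113 and 199 CPM in NCT (log2 fold change -0.58, SE 0.18, adjusted p = 0.210). Sox17, an endothelial transcription factor, was at 0.79 (SE 0.24, adjusted p = 0.205), and Psph, an enzyme of serine synthesis, at -0.98 (SE 0.35, adjusted p = 0.286).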
